A study of Drosophila melanogaster with 9 samples.

Results

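The genes described here are 35 genes of DNA replication and S phase in Drosophila melanogaster, taken by gene symbol from the 16727 symbols of the deposited count tables. They comprise 7 genes of the MCM helicase, 9 of origin recognition and licensing, 4 of the GINS complex, 5 of the sliding clamp, its loader and chromatin assembly, both genes of ribonucleotide reductase and 8 regulators of the passage from G1 to S phase. All 35 had a row, and 34 had enough counts to be tested. The remaining gene, lat (the ORC subunit gene Orc3 in current annotation), had 0 counts in each of the 9 libraries.

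A replication origin is bound by the origin recognition complex (ORC), which with Cdc6 and the Cdt1 protein Double parked (gene dup) loads the MCM helicase onto DNA in G1, while Geminin holds Double parked back afterwards. Cyclin E with Cdk2 then starts S phase, the GINS complex turns the loaded helicase into the active form, and the PCNA clamp, placed by replication factor C (RFC), tethers the polymerases. Many of these genes are transcribed under E2F transcription factors, which the retinoblastoma protein Rbf restrains. Neuroblasts, the neural stem cells of the fly brain, run through these steps in every division, and the daughter cells that become neurons leave the cycle.

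RNA-seq of polyadenylated transcripts compared brain tumours at 3 stages, with 3 libraries each. In all 3 groups the tumour cells came from actin flip-out clones of the larval brain, marked with GFP, that overexpressed HA-tagged dpn and E(spl)mγ, a pair of HES-family repressors of neural stem cells (UAS-HA-dpn and UAS-HA-mγ, called DM). Because the actin driver is active in any cell in which the flip-out occurred, the clones are not limited to neuroblasts. For the primary group, brains of larvae in the last instar were dissociated with collagenase 4 days after the clones were induced, and GFP-positive cells were sorted from 150 brains for each replicate. The T0 group was made of tumour masses of the first allograft of such brains and the T3 group of masses of the fourth serial allograft. T0 and T3 masses grew for 8 to 10 days, and each replicate pooled those of 25 adult hosts (w1118) with no sorting, so sorting, dissociation, host and growth time cannot be told apart from the step into the host.

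Libraries held 7932772 to 14093032 counts, and the members with counts received between 85 (dap) and 8901 (E2f1) counts in a library. Together they took 0.446% of the counts in the lowest library, T0 replicate 2, and 0.629% in the highest, primary replicate 2. Both overexpressed genes were well detected and lower after grafting, dpn with means of 639 CPM in primary, 253 CPM in T0 and 243 CPM in T3 (CPM, counts per 1e6 counts after scaling by TMM), and E(spl)mgamma-HLH with 503, 181 and 178 CPM. Counts per gene do not separate transcripts of the overexpressed copy from those of the fly's own gene. The summed level of 8 neuroblast markers ranged from 3873 to 4436 CPM in primary, 4081 to 4965 CPM in T0 and 4077 to 4431 CPM in T3. These 8 markers include the overexpressed dpn. Single markers went opposite ways under these sums, with 3 called higher (grh, klu and mira) and 3 lower (ase, dpn and wor) in T0, and 1 higher (mira) and 2 lower (ase and dpn) in T3, and mira alone averaged 1834, 2491 and 2418 CPM in the 3 groups. The summed level of 12 neuronal markers was 1256 to 2238 CPM in primary, 201 to 318 CPM in T0 and 149 to 220 CPM in T3, and 11 of the 12 were called lower in either comparison with primary. Markers of host tissue were low in primary. Summed over 10 genes, hemocyte markers reached 45.3 to 54.6 CPM in primary, 101 to 288 CPM in T0 and 101 to 127 CPM in T3, and 7 gut markers reached at most 0.438 CPM in primary, 46.0 CPM in T0 and 2.64 CPM in T3. Of 9 hemocyte markers tested, 7 were called higher and 0 lower in T0, and 7 higher and 1 lower in T3. A few genes carried the hemocyte sums. crq alone averaged 36.1 CPM in primary, and NimC4 read 76.3, 6.96 and 2.21 CPM in T0 replicates 2, 3 and 4. In bulk samples such as these, fewer cells of a type and less RNA per cell cannot be told apart.

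Few of the replication genes were called after grafting. In T0 against primary, 1 member rose (Psf3) and 6 fell (dap, geminin, RfC3, E2f2, Mcm7 and dup), which is 20.6% of the 34 tested, where 45.6% of the 9082 genes tested were called, 22.4% higher and 23.2% lower. In T3 against primary, 2 rose (Psf3 and Psf2) and the same 6 fell, 23.5% of the members against 47.2% of all genes tested, 23.1% higher and 24.1% lower. Genes were called with edgeR's quasi-likelihood test at a Benjamini-Hochberg adjusted p under 0.05, adjusted over all genes tested. The median log2 fold change of the members was -0.14 in T0 and -0.12 in T3, beside 0.01 and -0.0003 over all genes. Regardless of sign, the median member differed by 0.17 in T0 and 0.27 in T3 on the log2 scale, and the median gene by 0.49 and 0.50. The 95% interval of the fold change lay within 2-fold either way for 31 of 34 members in T0 and 30 in T3, and within 1.5-fold for 24 and 13. Libraries of the groups did not overlap for 7 members in T0 and 13 in T3, where 54.8% and 57.9% of all genes tested were apart. Both comparisons share the primary libraries, so their likeness is not a repeat. Without T0 replicate 2 the median of the members was -0.01 in T0. Without T3 replicate 1 it was -0.05 in T3, with 5 members called, and without primary replicate 2 it was -0.08 in T0 and -0.07 in T3. Without primary replicate 4 it moved the other way, to -0.24 in T0 and -0.19 in T3.

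**Figure D1:**
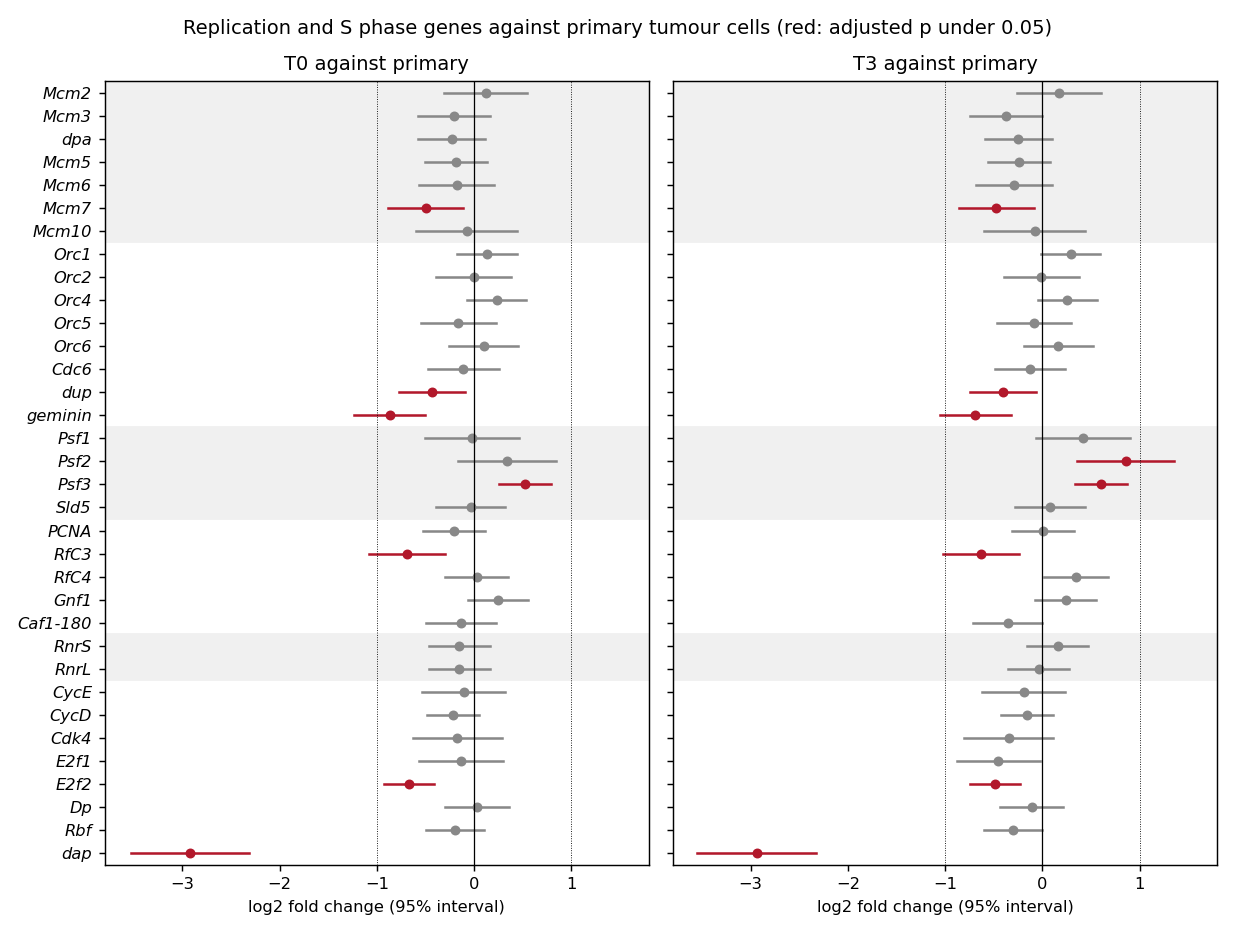
Log2 fold change of each of the 34 tested members in T0 (left) and T3 (right) against primary, with the 95% interval; dotted lines mark 2-fold and shading parts the roles. Red marks an adjusted p under 0.05. dap lies alone beyond 2-fold on the left of both panels, and Psf3 and Psf2 lie on the right.

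Per kb of exon, which allows levels to be compared roughly between genes, the members spanned from 10.4 (Cdk4) to 451 CPM per kb (PCNA) in primary. The length used is that of all annotated exons of a gene merged, whichever transcripts were expressed, so the order of genes is approximate. PCNA had the highest level in all 3 groups, with 451, 391 and 452 CPM per kb. The order then differed: geminin came second in primary at 197 CPM per kb, eighth in T0 at 108 and seventh in T3 at 122. dap went from place 19 at 44.0 CPM per kb in primary to place 34, the last with counts, at 5.77 in T0 and 5.67 in T3. The subunit genes MCM2 to MCM7 had medians of 119, 112 and 105 CPM per kb in primary, T0 and T3, those of the 5 detected ORC genes were 33.5, 33.4 and 33.3, and those of the 4 GINS genes were 19.2, 22.6 and 27.1.

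**Figure D2:**
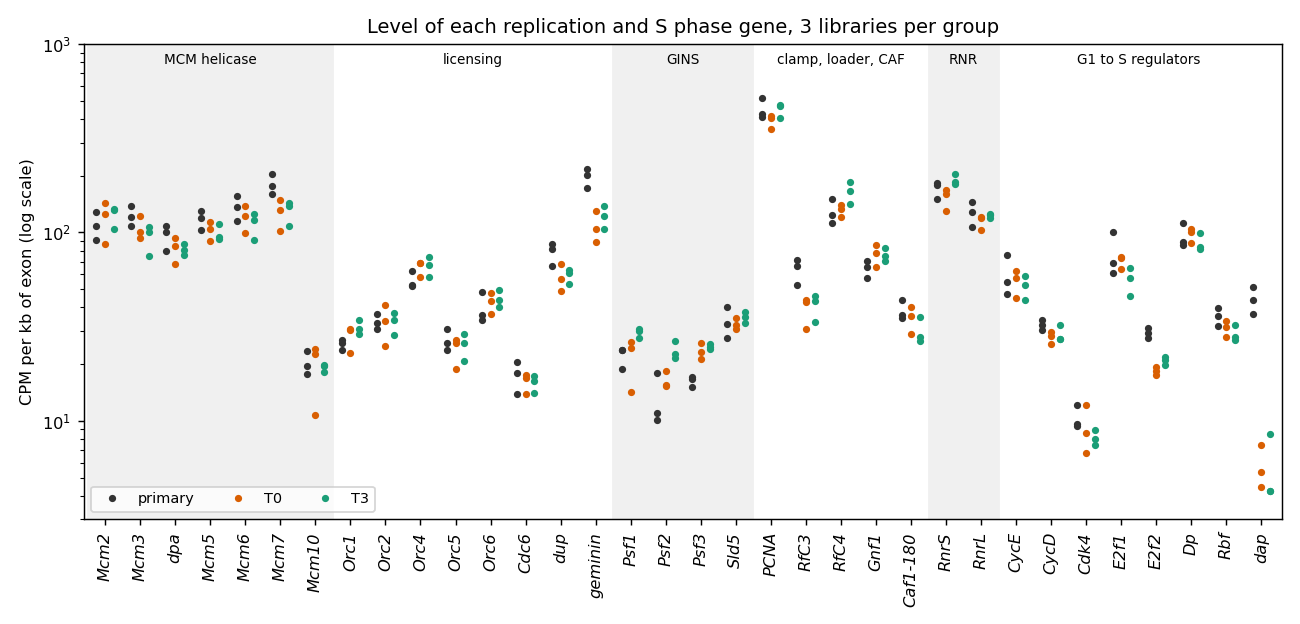
Level of each of the 34 members with counts in CPM per kb of exon (log axis), grouped by role, with 1 point per library and a colour per group. PCNA is highest throughout, and the dap points of T0 and T3 lie far below those of primary. By group mean, ORC, Cdc6 and GINS genes sit below the MCM2 to MCM7 genes, though single points of Orc4 and dpa overlap in T0.

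The helicase that unwinds the origin is a ring of 6 different subunits, encoded by Mcm2, Mcm3, dpa (Mcm4), Mcm5, Mcm6 and Mcm7. Mcm7 was the only one of these genes called, and it fell in both groups. It read 430, 503 and 390 CPM in primary replicates 1, 2 and 4, 248, 366 and 324 CPM in T0 replicates 2, 3 and 4, and 337, 351 and 265 CPM in T3 replicates 2, 4 and 1. Each primary library was above each grafted one. The log2 fold change was -0.50 ± 0.18 (SE) in T0 (adjusted p = 0.0375) and -0.47 ± 0.18 in T3 (adjusted p = 0.0442), both near the threshold. Mcm7 was no longer called in T0 or T3 when T0 replicate 2 and T3 replicate 1 were left out together, and over 17 other settings its adjusted p ranged up to 0.139 in T0 and 0.177 in T3. Its exons (3L, 8891596 to 8894310, dm6) are covered over 81.7% by an antisense RNA gene, asRNA:CR45871. The strand setting of the counting is not given in the sources used here, nor is the treatment of reads in shared bases. The part of such reads in the Mcm7 values was not tested.

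Mcm2 went the other way without being called. In the same order of libraries, which is kept throughout, it read 313, 372 and 264 CPM in primary, 252, 413 and 365 in T0 and 379, 386 and 302 in T3, and the groups overlapped. Its log2 fold changes were 0.12 in T0 (95% interval -0.31 to 0.55) and 0.17 in T3 (-0.26 to 0.60). Mcm3, dpa, Mcm5 and Mcm6 had values of -0.23 to -0.18 in T0 and -0.37 to -0.24 in T3, and none was called. Mcm3 had its 3 T3 libraries below all primary ones, at 206 to 294 CPM against 296 to 378 CPM (adjusted p = 0.0906). Mcm10, a separate factor that aids the activated helicase, had values of -0.08 in T0 and -0.08 in T3, with intervals from -0.60 to 0.44 in either.

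Within a library the 6 subunit genes moved as a block, and the make-up of the block differed between groups. Each of the 6 was highest in primary replicate 2, T0 replicate 3 and T3 replicate 4, and lowest in primary replicate 4, T0 replicate 2 and T3 replicate 1. Summed over the 6 genes, the level was 760 ± 105 CPM per kb in primary, 656 ± 112 in T0 and 638 ± 81.8 in T3 (SD, n = 3). Of that sum Mcm7 made up 23.7% ± 0.600 in primary, 19.4% ± 0.485 in T0 and 20.3% ± 0.534 in T3, while Mcm2 made up 14.3% ± 0.483, 17.9% ± 1.51 and 19.3% ± 0.512. The ratio of Mcm2 to Mcm7 counts was 0.728, 0.739 and 0.676 in primary, 1.01, 1.13 and 1.13 in T0, and 1.13, 1.10 and 1.14 in T3. The primary libraries lay below the others without overlap in this ratio, which was chosen after the levels were seen and is given with no test. A lower share of Mcm7 by itself raises the shares of the other genes. The shares and the ratio rest on the Mcm7 counts, in which the part of reads from asRNA:CR45871 was not tested.

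**Figure D3:**
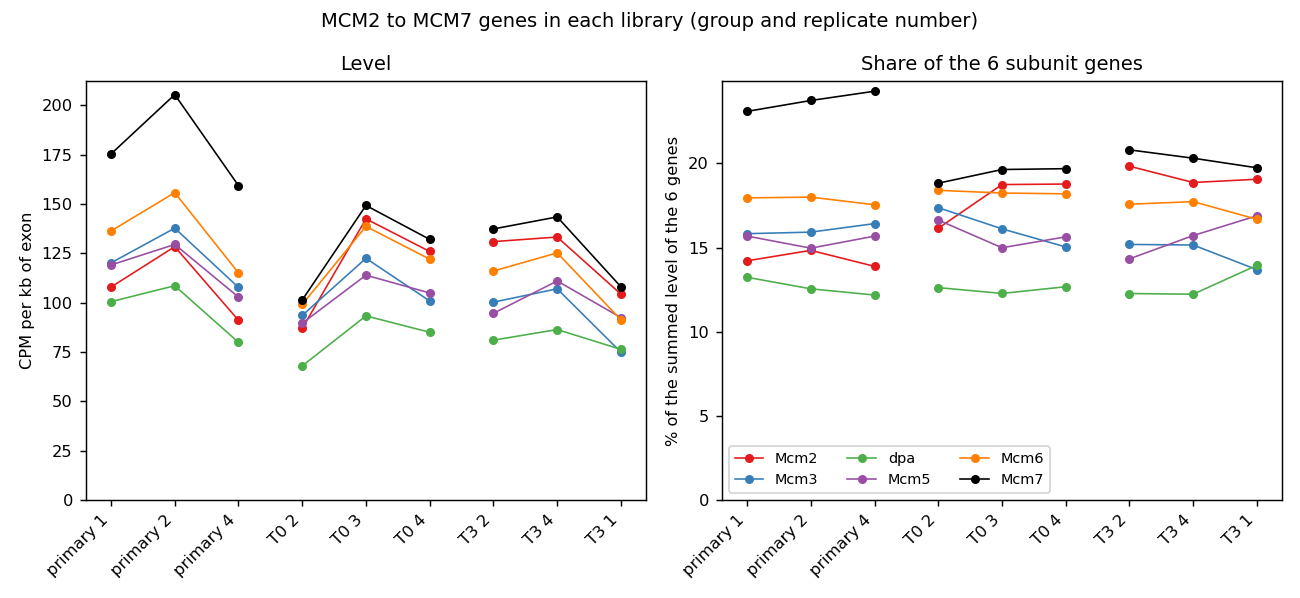
Left, level of the 6 MCM2 to MCM7 genes in CPM per kb of exon in each of the 9 libraries; right, each gene's share of their sum in percent. Lines join libraries of a group only to make a gene traceable. On the left the 6 genes rise and fall together from library to library, and on the right Mcm7 stands at 23.1% to 24.3% in primary and 18.8% to 20.8% elsewhere, while Mcm2 stands at 13.9% to 14.8% in primary and 16.1% to 19.8% elsewhere.

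Of the genes that mark and license origins, dup and its inhibitor geminin fell, and the ORC and Cdc6 genes were not called. geminin (2R, 6655463 to 6656594) read 182, 232 and 213 CPM in primary, 94.4, 138 and 111 in T0 and 147, 130 and 111 in T3. All 6 grafted libraries were below all 3 primary ones. This gave a log2 fold change of -0.87 ± 0.17 in T0 (adjusted p = 0.00137), a level 1.82-fold lower, and of -0.69 ± 0.17 in T3 (adjusted p = 0.00522), 1.62-fold lower.

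dup (2R, 15376619 to 15380988) read 272, 256 and 208 CPM in primary, 154, 214 and 177 in T0 and 197, 190 and 168 in T3. The T3 libraries were all below primary, and T0 replicate 3 lay above primary replicate 4. The log2 fold change was -0.43 ± 0.16 in T0 (adjusted p = 0.0390) and -0.41 ± 0.16 in T3 (adjusted p = 0.0488). Of 17 other settings dup was called in 8 for T0 and 7 for T3. The count ratio of dup to geminin was 1.49, 1.11 and 0.979 in primary, 1.63, 1.55 and 1.59 in T0 and 1.34, 1.46 and 1.52 in T3, so that T0 lay above primary and T3 overlapped with it.

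The 5 ORC genes with counts, whose products form the complex that marks origins, had log2 fold changes of -0.16 (Orc5) to 0.23 (Orc4) in T0 and -0.09 (Orc5) to 0.29 (Orc1) in T3. Orc6 had values of 0.10 in T0 and 0.16 in T3, with intervals from -0.26 to 0.52. Orc1, the large ATPase subunit, read 85.1, 74.5 and 81.4 CPM in primary, 72.2, 96.9 and 95.2 in T0 and 96.4, 91.1 and 107 in T3. Its T3 libraries were all above primary, yet the gene did not pass (0.29, 95% interval -0.01 to 0.60, adjusted p = 0.107). Orc2 had a value of -0.01 in T3, with an interval from -0.40 to 0.37. Cdc6, the loading factor that joins ORC, had values of -0.11 and -0.13, with intervals from -0.49 to 0.25.

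The 0 counts of lat stand beside a feature of the annotation. Its exons (2R, 13202728 to 13206547) are overlapped over 100% of their length by CG34315 on the same strand, and CG34315 also had 0 counts in all libraries. The level of lat can therefore not be read from these tables, and no fold is given.

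GINS, a complex of 4 small proteins that binds MCM together with Cdc45, was the only role in which called members rose. Psf3 (X, 10383353 to 10385861) read 36.1, 39.9 and 40.9 CPM in primary, 50.8, 55.1 and 61.9 in T0 and 57.1, 61.0 and 59.0 in T3. Each grafted library was above each primary one. The log2 fold change was 0.52 ± 0.12 in T0 (adjusted p = 0.00440), 1.44-fold, and 0.60 ± 0.12 in T3 (adjusted p = 0.00185), 1.52-fold. Over 34.9% of its length Psf3 shares bases with CG17841 on the opposite strand, which was itself called higher (0.57 in T0, adjusted p = 0.00283, and 0.44 in T3, adjusted p = 0.0116), with means of 98.8, 147 and 134 CPM. The part of CG17841 reads in the Psf3 counts was not tested.

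Psf2 (2L, 4386182 to 4387356) was among the lowest members, with 93 to 269 counts in a library. It read 9.57, 15.5 and 8.73 CPM in primary, 13.4, 13.3 and 16.0 in T0 and 22.9, 18.6 and 19.7 in T3. The T3 libraries lay above all others, and primary replicate 2 lay within the T0 range. Psf2 was called in T3 (0.85 ± 0.23, adjusted p = 0.00903, 1.81-fold) and not in T0 (0.34 ± 0.23, adjusted p = 0.251). Without primary replicate 2 it was also called in T0, at 0.64 (adjusted p = 0.0309). Psf1 read 13.0, 16.4 and 16.4 CPM in primary, 9.86, 18.2 and 16.8 in T0 and 20.8, 21.3 and 19.1 in T3, with T3 above the other groups, and it was not called in T3 (0.42, 95% interval -0.07 to 0.90, adjusted p = 0.141). Sld5 had values of -0.04 in T0 and 0.08 in T3, with intervals from -0.39 to 0.43.

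Around the clamp, RfC3 fell and the other 4 genes were not called. RfC3, a small subunit gene of the RFC clamp loader (2L, 10419190 to 10420612), read 59.4, 81.0 and 75.5 CPM in primary, 35.02, 49.9 and 48.3 in T0 and 52.2, 49.3 and 37.8 in T3. All grafted libraries were below all primary ones. The log2 fold change was -0.69 ± 0.18 in T0 (adjusted p = 0.00767) and -0.63 ± 0.18 in T3 (adjusted p = 0.0122). Without T3 replicate 1, RfC3 was not called in T3 (-0.50, adjusted p = 0.0611), nor was it without primary replicate 2.

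RfC4, another small subunit gene of the loader, read 127, 170 and 139 CPM in primary, 151, 157 and 136 in T0 and 208, 160 and 186 in T3. Its T3 libraries were above those of T0 and overlapped with primary. Its log2 fold changes were 0.03 in T0 and 0.35 in T3 (95% interval 0.02 to 0.67, adjusted p = 0.0762). Gnf1, the large RFC subunit, had values of 0.25 and 0.24 and was not called.

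PCNA, the clamp itself and a common label of proliferating cells, was not called in either comparison. It read 438, 554 and 455 CPM in primary, 431, 445 and 379 in T0 and 504, 435 and 509 in T3, and the groups overlapped. The log2 fold change was -0.21 in T0 (95% interval -0.53 to 0.11) and 0.0019 in T3 (-0.32 to 0.32). Caf1-180, the large subunit of the factor that places histones on new DNA, had values of -0.14 in T0 and -0.36 in T3 (adjusted p = 0.529 and 0.0919).

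Ribonucleotide reductase makes deoxyribonucleotides from a large (RnrL) and a small (RnrS) subunit. RnrS read 283, 291 and 240 CPM in primary, 208, 269 and 255 in T0 and 326, 293 and 288 in T3, with T3 above T0 and overlapping with primary. RnrL read 331, 372 and 276 CPM in primary, 265, 311 and 306 in T0 and 325, 320 and 309 in T3, with all groups overlapping. Their log2 fold changes against primary were -0.15 and -0.15 in T0 and 0.16 and -0.04 in T3, none called, with intervals from -0.47 to 0.47.

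Among the regulators of S phase entry, dap and E2f2 fell and the other 6 were not called. dap encodes Dacapo, the p21/p27-type inhibitor of Cyclin E with Cdk2, which in the developing nervous system is switched on as cells leave the cycle. dap (2R, 9712321 to 9716256) read 130, 93.1 and 110 CPM in primary, 13.6, 11.3 and 18.9 in T0 and 10.7, 10.7 and 21.6 in T3. Each primary library was far above each grafted one. The fall was 7.58-fold in T0 (log2 fold change -2.92 ± 0.28, adjusted p = 9.02e-06) and 7.66-fold in T3 (-2.94 ± 0.28, adjusted p = 7.55e-06), and dap was the only member to change by at least 2-fold. The neuronal markers fell in the same libraries (201 to 318 CPM in T0 and 149 to 220 CPM in T3, from at least 1256 CPM in primary). Of 7 glial markers tested, 4 were called lower and 1 higher in either comparison with primary. The summed level of 8 glial markers did not fall, at 438 to 642 CPM in primary, 665 to 893 CPM in T0 and 465 to 708 CPM in T3. Within that sum Eaat1 alone averaged 192, 510 and 366 CPM in the 3 groups. The part of neuronal and glial cells in the dap values was not tested.

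CycE, whose product Dacapo inhibits, read 381, 276 and 237 CPM in primary, 227, 291 and 314 in T0 and 221, 296 and 267 in T3, and the groups overlapped. Its log2 fold changes were -0.11 in T0 (95% interval -0.53 to 0.32) and -0.19 in T3 (-0.62 to 0.23). The ratio of CycE to dap counts was therefore 2.93, 2.97 and 2.15 in primary, 16.7, 25.8 and 16.6 in T0 and 20.6, 27.7 and 12.3 in T3, a ratio of transcripts and not of proteins. Primary lay below both grafted groups without overlap, while T0 and T3 overlapped, with means of 2.68 ± 0.463 in primary, 19.7 ± 5.31 in T0 and 20.2 ± 7.68 in T3 (SD, n = 3). This ratio, like that of dup to geminin, was chosen after the levels were seen and carries no test.

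**Figure D4:**
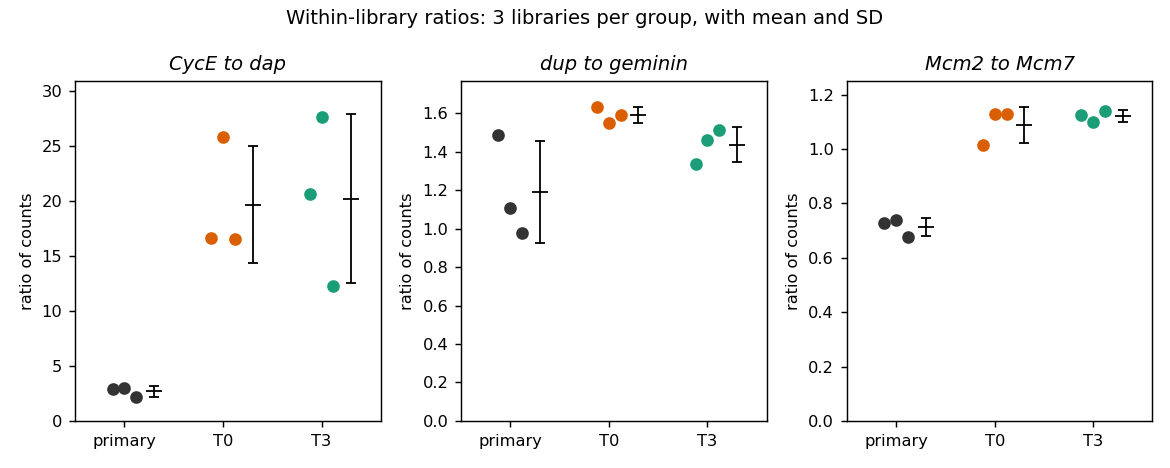
Ratio of raw counts within each library for CycE to dap, dup to geminin and Mcm2 to Mcm7, with 1 point per library and the mean and SD of 3 libraries per group beside them. The CycE to dap ratio is 2.15 to 2.97 in primary and 12.3 to 27.7 in the grafted libraries, and the Mcm2 to Mcm7 ratio is at most 0.739 in primary and at least 1.01 elsewhere.

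E2f2, the E2F protein of the fly that only represses (2L, 21154293 to 21156749), read 55.1, 62.0 and 58.6 CPM in primary, 35.02, 38.7 and 36.8 in T0 and 43.9, 42.1 and 39.8 in T3. The 3 groups were all apart, with T0 lowest. The log2 fold change was -0.67 ± 0.12 in T0 (adjusted p = 7.42e-04) and -0.48 ± 0.12 in T3 (adjusted p = 0.00528). T3 was above T0 by 0.19, which was not called (adjusted p = 0.639). Over 19.9% of its exons E2f2 overlaps with Mpp6 on the other strand, a gene that was not called (-0.48 in T0, adjusted p = 0.0911, and -0.11 in T3, adjusted p = 0.700).

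E2f1, the activating E2F, had the highest count of any member in a single library, 8901 in primary replicate 1. It read 650, 442 and 395 CPM in primary, 469, 410 and 476 in T0 and 298, 420 and 368 in T3, and primary replicate 1 was high against the other 8 libraries. Its log2 fold changes were -0.13 in T0 and -0.45 in T3 (95% interval -0.88 to -0.02, adjusted p = 0.0773). Dp, the shared E2F partner, had values of 0.03 in T0 and -0.11 in T3. Rbf, the retinoblastoma protein that binds E2F, had -0.20 in T0 and -0.30 in T3 (adjusted p = 0.258 and 0.0878). CycD and Cdk4, partners that act on Rbf and on growth, had -0.22 and -0.17 in T0 and -0.16 and -0.35 in T3, none called. The 3 T0 libraries of CycD were all below primary, at 62.5 to 72.5 CPM against 74.5 to 84.0 CPM.

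**Figure D5:**
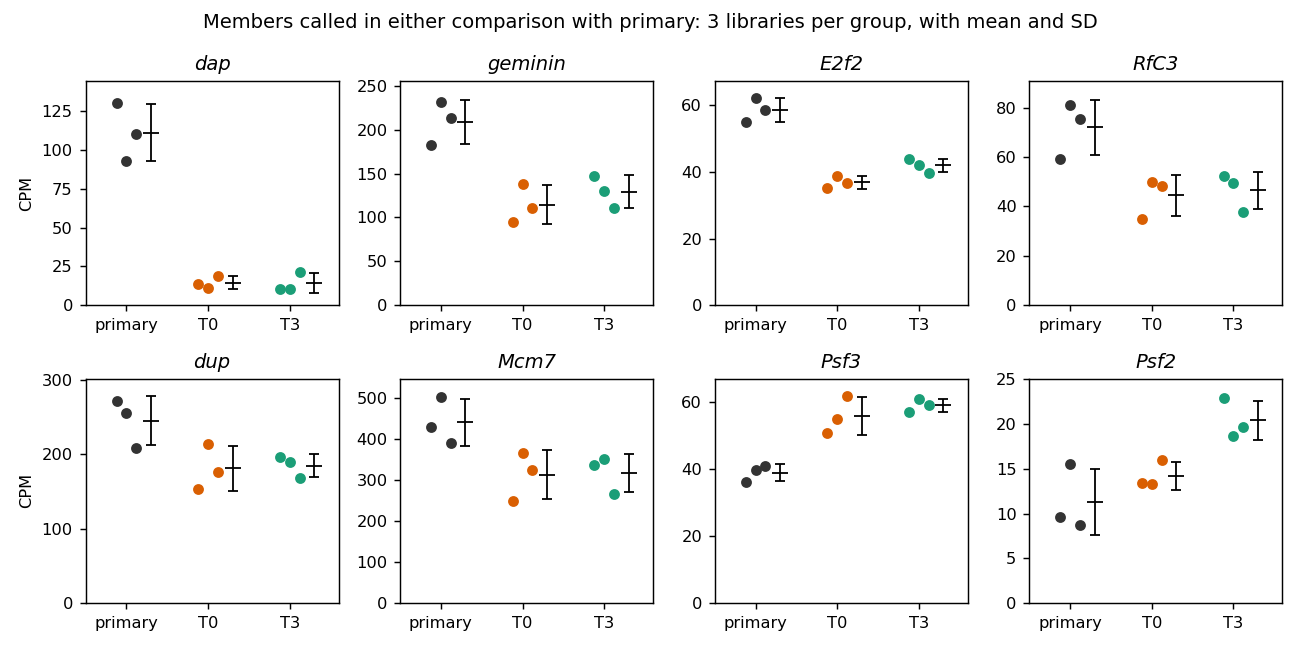
CPM of the 8 members called in T0 or T3 against primary, with 1 point per library and the mean and SD of 3 libraries per group beside them. dap drops from 93.1 to 130 CPM in primary to at most 21.6 CPM after grafting, 5 other genes are lower after grafting, and Psf3 is higher in both grafts and Psf2 in T3.

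Between the first and the fourth graft no member was called. Of all genes tested, 0% were called in T3 against T0 with edgeR (lowest adjusted p = 0.330), with 746 at an unadjusted p under 0.05 and 13 called with DESeq2. Of the members, 1 (Psf2) had an unadjusted p under 0.05, and DESeq2 called 0. The members' log2 fold changes ran from -0.32 (E2f1) to 0.52 (Psf2), with a median of 0.02, and 33 of 34 intervals lay within 2-fold, that of Psf2 reaching 1.01. The 5 members whose T3 libraries did not overlap with T0 were Psf1, Psf2, RfC4, RnrS and E2f2, all higher in T3 (0.44, 0.52, 0.32, 0.31 and 0.19). Such separation was found for 15.1% of all genes tested. dap did not differ measurably between the grafts (-0.01, 95% interval -0.62 to 0.59), and Mcm7 likewise (0.02, -0.36 to 0.41).

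Libraries of 1 group differed over the whole set of members. T0 replicate 2 held the lowest T0 value of 28 of 34 members (82.4%), where it was lowest for 39.3% of all genes tested. T3 replicate 1 was lowest in its group for 23 members (67.6%, against 28.4% of all genes), and primary replicate 4 for 22 (64.7%, against 25.3%). T0 replicate 2 also had the most host signal of all libraries, with summed marker levels of 288 CPM for hemocytes, 251 CPM for fat body (at most 133 CPM elsewhere) and 46.0 CPM for gut. T3 replicate 1 had 127, 11.9 and 0.367 CPM, the lowest fat body and gut values among the grafted libraries. The part of host tissue in the low member values was not tested. Without T0 replicate 2 and T3 replicate 1, 5 members were called in T0 and 6 in T3.

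Other genes of replication, 61 tested on lists that hold none of the members, gave calls for 4 higher and 10 lower in T0 (23%) and 7 higher and 12 lower in T3 (31.1%). Of all genes tested, 45.6% and 47.2% were called. The median log2 fold changes of the 61 genes were -0.11 and -0.07. None of the 11 genes of DNA polymerases alpha, delta and epsilon was called, with values between -0.41 and 0.33. Of 16 genes of origin firing and the fork, 1 rose and 1 fell in T0. These were cutlet, which encodes a clamp loader-like protein (0.46, adjusted p = 0.0198), and chif, the partner of the Cdc7 kinase (-0.52, adjusted p = 0.0276). In T3 2 rose and 2 fell, with chif at -0.79 (adjusted p = 0.00298).

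Of 15 genes of Okazaki fragment maturation, histone supply and cohesion, 3 rose and 2 fell in T0, and 4 rose and 1 fell in T3. That is 33.3% in either comparison, beside 45.6% and 47.2% of all genes tested. rnh1, a ribonuclease H gene, read 41.9 to 58.6 CPM in primary, 76.5 to 86.1 CPM in T0 and 84.8 to 92.4 CPM in T3 (log2 fold change 0.71 in T0 and 0.82 in T3, adjusted p = 0.00134 and 4.72e-04). Slbp, which binds the histone mRNA stem-loop, rose by 0.69 and 0.94 (adjusted p = 0.00335 and 4.32e-04), and eco, the acetyltransferase that locks cohesin, by 0.68 and 0.63 (adjusted p = 0.00193 and 0.00300). Caf1-55, a histone-binding subunit of CAF-1 and of other chromatin complexes, fell (-0.66 and -0.60, adjusted p = 0.00307 and 0.00528).

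The 19 genes of nucleotide supply and S phase control gave 7 lower and 0 higher in T0 and 9 lower and 1 higher in T3. That is 36.8% and 52.6% of them, beside 45.6% and 47.2% of all genes tested, of which 23.2% and 24.1% were called lower. Dref, which encodes the factor that binds the DRE element in many fly replication gene promoters, read 311, 317 and 298 CPM in primary, 96.2, 176 and 156 in T0 and 154, 152 and 154 in T3. No grafted library reached the primary range. It fell by 1.11 ± 0.19 on the log2 scale in T0 (adjusted p = 5.41e-04) and by 1.01 ± 0.19 in T3 (adjusted p = 9.47e-04), the largest fall among these 19 in T0. In T3 the largest fall was that of stg, the Cdc25 phosphatase gene that opens mitosis (-1.30 ± 0.27, adjusted p = 0.00213). Cdk2, the partner of Cyclin E, fell by 0.66 in T0 and 0.73 in T3 (adjusted p = 0.00292 and 0.00152).

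mip120, a subunit gene of the dREAM complex in which E2f2, Dp and an Rbf protein repress genes, fell by 0.88 in T0 and 0.87 in T3 (adjusted p = 0.00289 and 0.00305). Of 9 dREAM genes on these lists, grouped after their values were seen, 5 fell in both grafts (E2f2, mip120, mip130, lin-52 and Caf1-55), 0 rose, and Dp, Rbf, Rbf2 and mip40 were not called. Of all genes tested, 23.2% were called lower in T0 and 24.1% in T3. Because of how it was grouped, the set carries no test. Of 34 mitosis genes, set beside the members as another phase of the cycle, 1 rose and 9 fell in T0 (29.4%) and 0 rose and 11 fell in T3 (32.4%). The shares of all genes tested were 45.6% and 47.2%. The mitosis genes had medians of -0.22 and -0.14. Cdk1, the mitotic kinase, read 169 to 222 CPM in primary, 72.8 to 109 CPM in T0 and 83.3 to 102 CPM in T3 (log2 fold change -1.04 and -1.09). Whether the mitosis genes and the members differed was not tested.

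The authors' deposited table calls 1 member higher and 6 lower in T0 against primary, 2 higher and 6 lower in T3 against primary and 0 in T3 against T0. All 7 and all 8 were also called here.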

How the data were processed

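Polyadenylated RNA of 9 libraries was sequenced as single reads of 75 nt after 13 PCR cycles, per the labels' protocols. Tools in the submitters' processing notes are HISAT2 2.1.0, HTSeq, edgeR and bedtools 2.25.0, with build dm6. Which annotation was counted, and whether by strand, is not given in the sources used here. As input the authors deposited raw counts per gene, which were used for every test, beside their own log2 fold changes, ratios (fold change) and p-values per comparison, used only to state the authors' calls. Another 9 normalised per-sample columns per table were not used, and 0 lines lacked a gene name.

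The quasi-likelihood test of edgeR 4.0.16 (R 4.3.3, two-sided) was run on the counts in 1 fit over 9 libraries, with TMM factors and a filterByExpr minimum of 10 counts, leaving 9082 genes, and the procedure was tested on simulated data. In those data most changes of 0.5 on the log2 scale were not called. SE is the log2 fold change divided by the square root of F, and 95% intervals use the t quantile of the fit. Depth was 7932772 to 14093032 counts. Intervals rest on the spread between libraries, each a pool of animals. Replicates within a group differed by more than counting noise (chi-square per degree of freedom 14.9 to 75.9). Positions and exon lengths come from the Ensembl annotation of dm6.

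The members and all gene lists were chosen with earlier results of these data known. All members are named. From each other list up to 4 called genes with the smallest adjusted p per comparison were eligible, and dREAM genes were added after their values were seen. Alternatives were other scaling factors, filters and samples in the fit, DESeq2 1.42.0, a replicate block and leaving out libraries. A planned count of promoter motifs was not run, and no sequences are shown, because no promoter or protein sequences were used here.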

Additional observations from a re-analysis of the deposited data

How the results depend on the processing

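Of the members, dap, geminin, E2f2 and Psf3 in both comparisons with primary, RfC3 in T0 and Psf2 in T3 were called in each of 17 alternative settings. Mcm7 lost its call in 8 settings in either comparison, dup in 9 for T0 and 10 for T3, and RfC3 in 2 for T3. Calls were gained by RfC4 in 3 settings, E2f1 in 2 and Caf1-180 in 1 for T3, and by Psf2 in 1 for T0. No member changed direction where its size exceeded its SE. Leaving out 1 library gave 5 to 7 members called in T0 and 5 to 9 in T3, and 5 without T3 replicate 1.

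In T3 against T0, genes called numbered 96 with no filter, 13 with DESeq2 and 5 with the replicate block, and 0 to 5 when 1 library was left out. The cause was not tested. No member was among the calls of these settings. Library totals in place of TMM moved the median of all genes in T3 to 0.11 and the share of higher calls from 48.9% to 58.4%, with 7 members called, 3 higher and 4 lower.

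Same-numbered libraries did not deviate together in all pairs (r from -0.06 to 0.26), so the numbers were not taken to pair them. Between T0 and T3, same-numbered pairs had r of 0.20 and 0.26, and pairs with different numbers had r from -0.45 to 0.33. With the replicate block 7, 7 and 0 members were called in T0, T3 and T3 against T0, with medians of -0.23, -0.12 and 0.15. The lowest counts in a single library were those of dap (85), Psf1 (87) and Psf2 (93). A member that missed the threshold was not shown to be unchanged.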
